A study of Homo with 2 samples.

Results

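Known target genes of the transcription factor p53, 10 in number, were followed in single cells of day 4 human blastoids: CDKN1A, MDM2, BAX, FAS, TNFRSF10B, SESN1, GDF15, PHLDA3, RRM2B and ZMAT3. The genes were chosen by symbol, with earlier results of these data known. All 10 had 1 row in each of the 2 count tables, which together list 28363 genes, of which 25556 are in both. They were described across every barcode with at least 1000 detected genes, 1008 in library 1 and 1588 in library 2.

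Both libraries hold the same group. Human embryonic stem cells of the established line KhES1 were aggregated for 24 h in microwells and the aggregates were then grown in hydrogel. The hydrogel culture lasted 4 days. All cells received 10% serum (FBS) in DMEM and Y27632 at 10 µM, an inhibitor of the kinase ROCK that is used to limit the death of dissociated stem cells. With no untreated or p53-deficient sample, the comparisons are between kinds of barcode inside the same libraries. They are barcodes with over 20% mitochondrial UMIs (71 and 69) against those at or below that share (937 and 1517), and classes and clusters of cells within the second group. No label states separate cultures for the libraries, so a p-value here measures only a spread between 2 libraries that may be technical.

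The protein p53 is kept low in unstressed cells because MDM2, an E3 ubiquitin ligase, marks it for degradation. When DNA is damaged or cells are otherwise stressed, p53 accumulates and switches on genes that halt the cell cycle, repair DNA, quiet growth signalling or start apoptosis. MDM2 is itself a p53 target, which closes a feedback loop. In human pluripotent stem cells p53 is active against damaged cells. Several of these genes also answer other signals, such as the integrated stress response for GDF15 and TNFRSF10B. Transcripts of targets are therefore no direct measure of p53.

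The genes lie on 7 chromosomes and are protein-coding in RefSeq (GRCh38.p14). CDKN1A lies on chromosome 6 from 36676463 to 36687332, MDM2 on chromosome 12 from 68808172 to 68850686, BAX on chromosome 19 from 48954875 to 48961798 and GDF15 on chromosome 19 from 18386158 to 18389176. MDM2, FAS, SESN1 and TNFRSF10B overlap the genes CPM, ACTA2, ARMC2 and RHOBTB2, which the tables also list. How such loci were split in counting is not stated in the labels.

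The libraries held 38665475 and 45208758 UMIs, and cells at or below 20% mitochondrial UMIs had medians of 35059 and 25012 UMIs. Clusters were made from one random portion of each cell's UMIs (part A), and levels and tests of classes and clusters come from the other (part B). Clusters 0, 1, 2 and 4 form a trophectoderm/amnion-like class of 716 and 964 cells, cluster 7 is epiblast-like (61 and 93 cells) and cluster 5 is syncytiotrophoblast-like (25 and 59 cells). Trophectoderm is the outer layer of the blastocyst, syncytiotrophoblast the fused hormone-making layer that comes from it, and epiblast the pluripotent inner tissue. The epiblast marker list summed to 2105 and 2441 CPM (the UMIs of a gene per 1000000 UMIs) in epiblast-like cells, against 698 and 694 CPM in trophectoderm/amnion-like cells. The trophectoderm/amnion list summed to 2428 and 2320 CPM in epiblast-like cells and to 5131 and 5433 CPM in the trophectoderm/amnion-like class. The syncytiotrophoblast list summed to 671 and 253 CPM in syncytiotrophoblast-like cells, against 17.6 and 17.1 CPM in the trophectoderm/amnion-like class. Without 1 barcode that is described with the results, it summed to 67.7 CPM in library 1. Then 2 of its 6 counted markers reached 10 CPM in library 1 and 3 in library 2. Without that barcode the trophectoderm/amnion list summed to 6846 and 6898 CPM in syncytiotrophoblast-like cells, above the trophectoderm/amnion-like class. The name syncytiotrophoblast-like is therefore provisional. Clusters 3, 6 and 8 stayed unnamed, with a depth of 0.100, 0.126 and 0.118 of that of their libraries, and 1 barcode string was shared between the libraries.

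**Figure D1:**
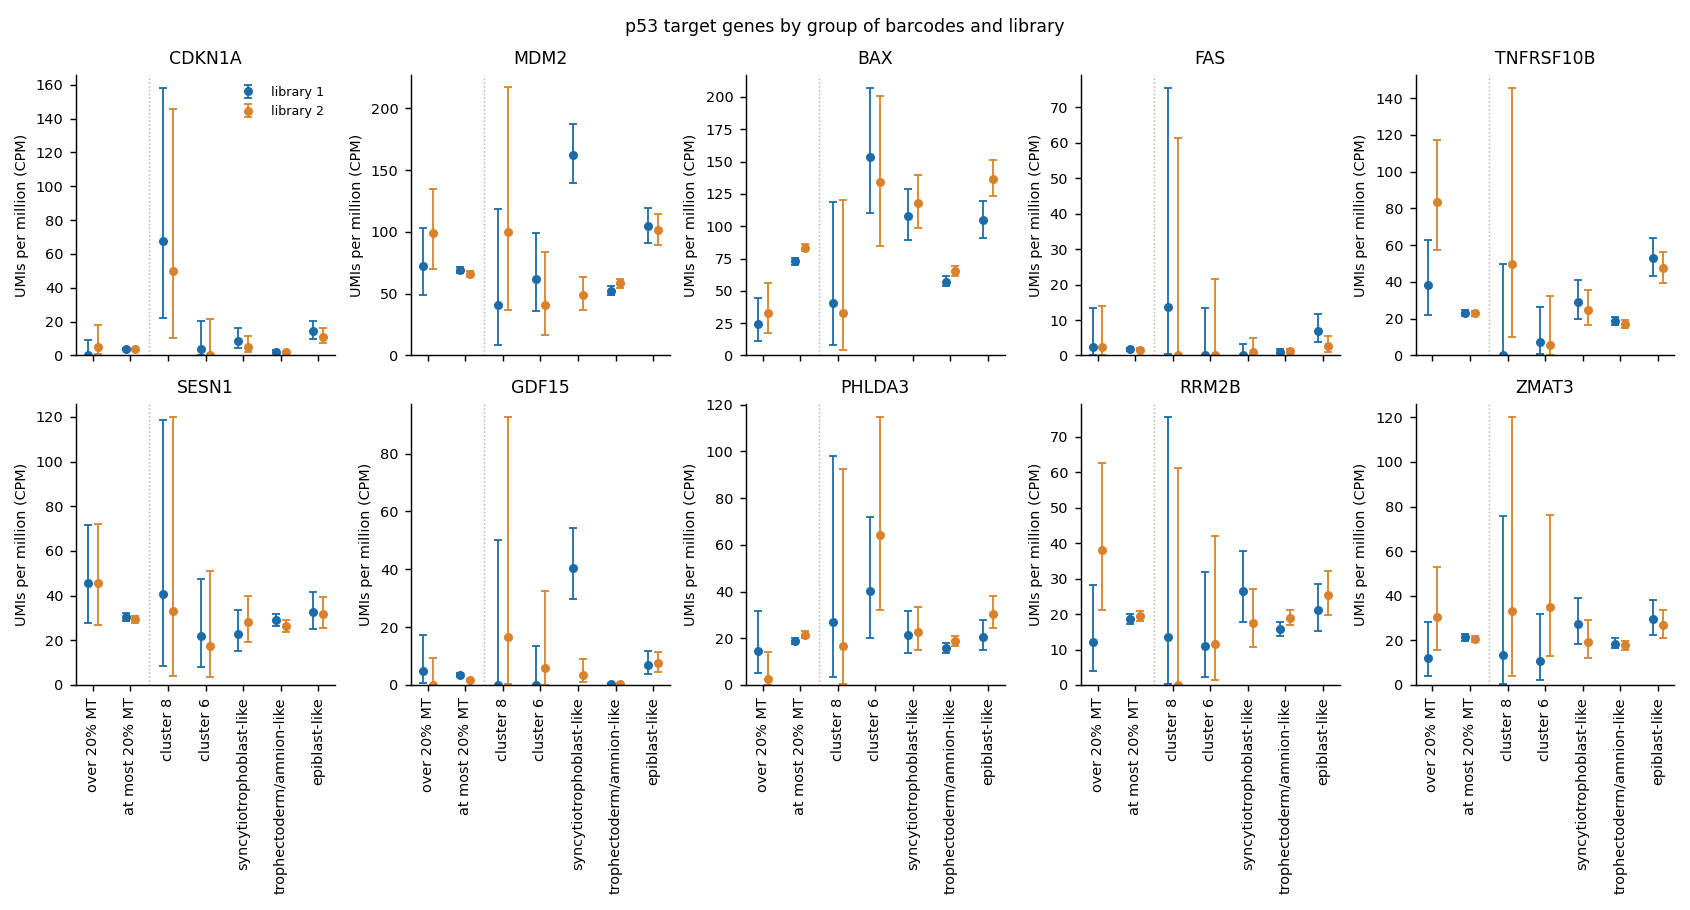
Level of each of the 10 genes in CPM, by group of barcodes, with a point per library and exact 95% Poisson intervals that cover counting error only. Left of the dotted line all UMIs were used without mitochondrial genes, and right of it part B. Intervals are wide in clusters 8 and 6, MDM2 and GDF15 stand high in library 1 of the syncytiotrophoblast-like cells, and the points of trophectoderm/amnion-like cells lie below those of epiblast-like cells for all 10 genes.

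Trophectoderm/amnion-like cells had lower levels of p53 targets than epiblast-like cells. Of the 9 genes that passed the filter on low counts, 6 were lower (edgeR quasi-likelihood test, adjusted p under 0.05) and 0 were higher. Of all 12823 genes tested, 22.7% were lower and 21.5% higher. No member was higher at an unadjusted p under 0.05 either, by edgeR or by the DESeq2 Wald test, which called 4 lower. The members' median log2 fold change was -0.82, against -0.002 over all genes tested. Without GDF15, which passed the filter only through groups where it is higher, 5 of 8 were lower, with a median of -0.69. In CPM, both libraries of the trophectoderm/amnion-like class lay below both libraries of the epiblast-like class for all 10 genes, the 9 tested and FAS, as they did for 42.3% of all genes tested.

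CDKN1A encodes p21, an inhibitor of cyclin-dependent kinases that stops the cell cycle. Its level was 2.14 and 2.03 CPM in trophectoderm/amnion-like cells (32 and 34 UMIs), against 14.3 and 11.2 CPM in epiblast-like cells (29 and 30 UMIs). The class of many cells thus held about as many CDKN1A UMIs as the small epiblast-like class. The log2 fold change was -2.51 (SE 0.39, edgeR adjusted p = 2.3e-06).

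MDM2 averaged 55.2 ± 4.31 CPM in trophectoderm/amnion-like cells and 103 ± 2.26 CPM in epiblast-like cells (SD, n = 2 libraries each). Its log2 fold change was -0.82 (SE 0.21, edgeR adjusted p = 0.00176), and the DESeq2 Wald test did not call it (adjusted p = 0.164).

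Among genes of cell death, BAX forms the pores in the outer mitochondrial membrane that release cytochrome c. It measured 57.2 and 65.2 CPM in trophectoderm/amnion-like cells, against 105 and 137 CPM in epiblast-like cells, a log2 fold change of -0.91 (SE 0.14, edgeR adjusted p = 2.87e-06). TNFRSF10B, a death receptor for the ligand TRAIL, was at 18.7 and 17.0 CPM in trophectoderm/amnion-like cells and at 52.8 and 47.3 CPM in epiblast-like cells. That was a log2 fold change of -1.41 (SE 0.19, edgeR adjusted p = 2.57e-07). FAS, the receptor for Fas ligand, was too sparse to be tested: 1.07 and 1.25 CPM in trophectoderm/amnion-like cells (37 UMIs in all) and 6.91 and 2.61 CPM in epiblast-like cells (21 UMIs). The ratio of its summed levels was 0.262, with a counting interval of 0.149 to 0.471.

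GDF15 is a secreted member of the TGF-beta superfamily released by stressed cells and by the placenta. It was close to absent in trophectoderm/amnion-like cells, at 0.335 and 0.179 CPM (5 and 3 UMIs), against 6.91 and 7.46 CPM in epiblast-like cells (14 and 20 UMIs). The ratio of its summed levels was 0.0349, with a counting interval of 0.0140 to 0.0769, and its log2 fold change was -4.70 (edgeR adjusted p = 1.15e-06). Its place among the tested genes was therefore not independent of its difference.

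The genes of metabolism, growth signalling and repair differed less. ZMAT3, a zinc finger protein that binds RNA and acts on splicing, was at 18.5 and 17.7 CPM in trophectoderm/amnion-like cells and 29.6 and 26.8 CPM in epiblast-like cells. Its log2 fold change was -0.56 (SE 0.22, edgeR adjusted p = 0.0369), and its call was kept in 3 of 10 alternatives of processing. PHLDA3, a repressor of the kinase AKT, had 17.2 ± 2.09 CPM in trophectoderm/amnion-like cells and 25.6 ± 6.96 CPM in epiblast-like cells (SD, n = 2 libraries each; edgeR adjusted p = 0.0567). RRM2B, the ribonucleotide reductase subunit that supplies nucleotides for repair, had 17.4 ± 2.34 CPM in trophectoderm/amnion-like cells and 23.3 ± 2.92 CPM in epiblast-like cells (SD, n = 2 libraries each; edgeR adjusted p = 0.228). SESN1, a sestrin that restrains mTORC1, differed least: 29.0 and 26.3 CPM in trophectoderm/amnion-like cells and 32.6 and 31.7 CPM in epiblast-like cells (edgeR adjusted p = 0.568).

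**Figure D2:**
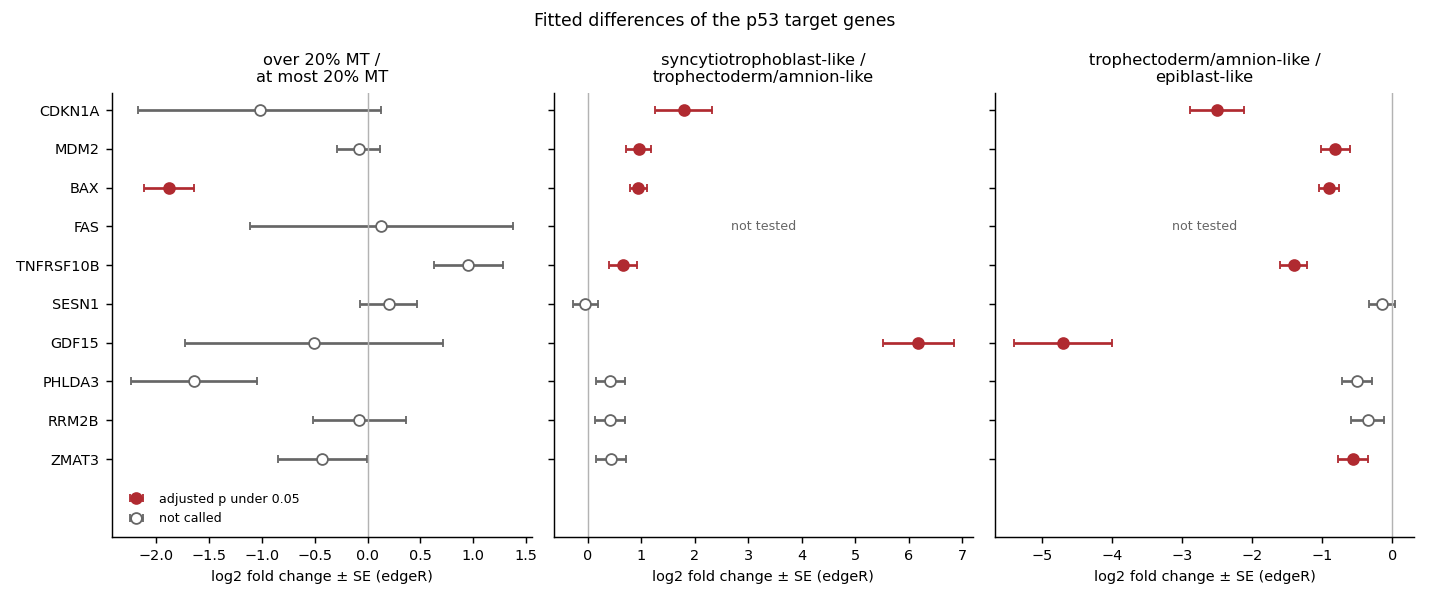
Log2 fold changes of the 10 genes with their SE in 3 comparisons, filled where edgeR's adjusted p was under 0.05 (each panel has its own log2 scale). BAX is the filled gene among barcodes over 20% mitochondrial UMIs, 5 members are filled to the right in syncytiotrophoblast-like cells, and 6 to the left in trophectoderm/amnion-like against epiblast-like cells.

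The epiblast-like class was not uniform. Primitive streak and mesoderm markers summed to 423 and 496 CPM in it (7 of 10 at 10 CPM or more in each library, none at 0), against 9.13 and 7.92 CPM in the trophectoderm/amnion-like class (0 of 10, EOMES and FOXF1 at 0 in library 1). Their part in the differences between the classes was not tested. In part A, 32 of its 61 cells in library 1 and 25 of its 93 in library 2 held a UMI of GATA3, a trophectoderm and amnion transcription factor. PHLDA3 was at 23.4 and 46.8 CPM in the epiblast-like cells with GATA3, against 15.7 and 17.9 CPM in those without. FAS was at 9.81 and 4.26 CPM with GATA3, against 1.42 and 1.33 CPM without (3 UMIs in all). CDKN1A did not separate these cells, at 12.8 and 17.9 CPM with GATA3 and 17.1 and 5.97 CPM without. Cells with GATA3 were deeper, with medians of 78271 and 65744 UMIs against 48894 and 46590.5, and a part of that or of doublets in these values was not tested. With only the epiblast-like cells without GATA3 in the comparison, chosen after the data were seen, the trophectoderm/amnion-like class remained lower in CDKN1A (log2 fold change -2.13), BAX (-0.84), GDF15 (-3.67) and TNFRSF10B (-1.42), all called by edgeR. MDM2 then had -0.56 (edgeR adjusted p = 0.0756), ZMAT3 had 0.03, PHLDA3 0.20 and SESN1 0.08, none of them called. SESN1 was at 28.5 CPM in both libraries and ZMAT3 at 32.8 and 11.9 CPM in the epiblast-like cells without GATA3. The classes then overlapped in PHLDA3, SESN1 and ZMAT3, so that the libraries lay apart for all 10 genes only with the cells with GATA3 included. CDKN1A, MDM2, BAX, FAS (3 UMIs), GDF15, RRM2B and TNFRSF10B still did not overlap.

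Other p53 targets went both ways. Of 32 tested from a list of 36, 13 were lower and 4 higher in trophectoderm/amnion-like than in epiblast-like cells, with a median log2 fold change of -0.44 (edgeR). TGFA, a ligand of the EGF receptor, was at 0.484 ± 0.262 CPM in the trophectoderm/amnion-like class and 12.5 ± 2.34 CPM in the epiblast-like class (SD, n = 2 libraries each; edgeR adjusted p = 7.87e-09). DDB2, which recognises ultraviolet damage, had a log2 fold change of -1.93, and FDXR, the ferredoxin reductase of mitochondria, one of -1.48. CCNG2, a cyclin that accompanies arrest, was higher in the trophectoderm/amnion-like class, at 93.0 against 27.4 CPM, a log2 fold change of 1.84.

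Of 16 tested regulators and relatives of p53, 4 were lower and 1 higher. The checkpoint kinases CHEK2 and CHEK1 had log2 fold changes of -1.67 and -0.49, and COP1, a ubiquitin ligase for p53, one of 0.90 (edgeR). Of 4 CDK inhibitors tested, CDKN1C was the called one, at 90.1 CPM in the trophectoderm/amnion-like class and 24.7 CPM in the epiblast-like class. It encodes p57, a relative of p21, and its direction was opposite to that of CDKN1A. Among 26 genes that p53 lowers through p21 and the RB family, 20 were lower in trophectoderm/amnion-like cells, where CDKN1A was lower too, led by CENPE (-1.59), MCM2 (-1.26) and RRM2 (-1.10). Of 24 G2 and M phase genes, some of them in both lists, 16 were lower.

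In the mitochondrial apoptosis list, 6 of 15 tested genes were higher in trophectoderm/amnion-like cells and 2 lower. BCL2, which blocks apoptosis, was at 63.2 CPM against 14.6 CPM in the epiblast-like class, and the pro-apoptotic BMF had a log2 fold change of 1.57. CYCS, cytochrome c, had one of -1.18. Of 5 tested genes of the death receptor pathway, the inhibitor CFLAR was higher (1.09) and FADD (-0.97) and TNFRSF1A (-0.59) lower. Of 12 tested genes of the integrated stress response 4 were lower, among them SLC7A11 (-3.11) and PSAT1 (-2.94). Of 12 immediate early and heat shock genes, which mark dissociation among other stresses, 4 were lower and 2 higher, so this list did not move one way.

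Syncytiotrophoblast-like cells were compared with the trophectoderm/amnion-like class after the data were seen. Their depth differed between the libraries, with medians of 73813 and 10803 UMIs, against 36676.5 and 32116 in the trophectoderm/amnion-like class. A part of depth in the values was not tested. Of 9 tested members, 5 were higher and 0 lower (edgeR, also 0 lower at an unadjusted p under 0.05, and 0 by the DESeq2 Wald test), where 18.4% of all genes were higher and 16.8% lower. Without GDF15, which passed the filter only through groups where it is higher, 4 of 8 were higher, with a median log2 fold change of 0.54. These 4 include MDM2, which rested on a single barcode described below. BAX had 108 and 118 CPM in syncytiotrophoblast-like cells and 57.2 and 65.2 CPM in the trophectoderm/amnion-like class, a log2 fold change of 0.95 (SE 0.16, edgeR adjusted p = 1.23e-05). CDKN1A was at 8.83 and 5.27 CPM in syncytiotrophoblast-like cells (10 and 6 UMIs) and 2.14 and 2.03 CPM in the trophectoderm/amnion-like class. Its log2 fold change was 1.79 (SE 0.54, edgeR adjusted p = 0.00879), and the call was lost when parts A and B were exchanged. TNFRSF10B had a log2 fold change of 0.66, just past the threshold (edgeR adjusted p = 0.0484). That call was lost with DESeq2's size factors, in the DESeq2 Wald test and with no filter on low counts.

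The higher MDM2 in syncytiotrophoblast-like cells rested on 1 barcode of library 1, and so did most of the GDF15 in that library. MDM2 measured 162 and 49.2 CPM in syncytiotrophoblast-like cells, against 52.2 and 58.3 CPM in the trophectoderm/amnion-like class, so the libraries disagreed. GDF15 measured 40.6 and 3.51 CPM in syncytiotrophoblast-like cells, against 0.335 and 0.179 CPM. Library 2 does not hold that barcode. Its 3.51 CPM came from 4 UMIs, with a counting interval of 0.957 to 8.99 CPM. The interval in the trophectoderm/amnion-like class of library 2 was 0.0369 to 0.523 CPM (3 UMIs). The fits gave log2 fold changes of 0.95 (edgeR adjusted p = 0.00169) for MDM2 and 6.18 (edgeR adjusted p = 4.24e-09) for GDF15. Without that barcode of library 1, MDM2 had 0.23 (edgeR adjusted p = 0.368). GDF15 was then too sparse to be tested, which does not decide whether it differed.

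The barcode held 193688 UMIs, 8465 detected genes and 2.75% mitochondrial UMIs. It had 191 MDM2 UMIs, of 336 in all 25 syncytiotrophoblast-like cells of its library, and 86 GDF15 UMIs of 89. The next highest MDM2 count in that library was 61, and the next highest GDF15 count 7. The other p53 targets had few UMIs in the same barcode: 8 of BAX, 2 of SESN1 and 1 each of CDKN1A, PHLDA3 and RRM2B. FAS, ZMAT3 and TNFRSF10B had 0. The 1 CDKN1A UMI amounted to 5.16 CPM, against 1.97 CPM in trophectoderm/amnion-like cells of library 1 (all UMIs). CDKN1A and FAS were thus too sparse to be called low there. BAX had 41.3 CPM in the barcode, SESN1 10.3 CPM, and PHLDA3 and RRM2B 5.16 CPM each. In trophectoderm/amnion-like cells of library 1 they had 59.1, 29.0, 16.0 and 17.0 CPM (all UMIs). The counts are small, and whether any member lay below that class in this barcode was not tested. It also carried the genes of fused trophoblast, with 419 of the 478 UMIs of the aromatase gene CYP19A1 in the class in its library, 336 of 391 of the hormone subunit CGA and 253 of 259 of SDC1. It held 119 of 121 of the fusogen ERVW-1 and 89 of 98 of the transcription factor GCM1. The other syncytiotrophoblast-like cells of library 1 thus held few UMIs of these markers. MDM2 and GDF15 were thus high together in 1 barcode in which the 8 other members had at most 8 UMIs.

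**Figure D3:**
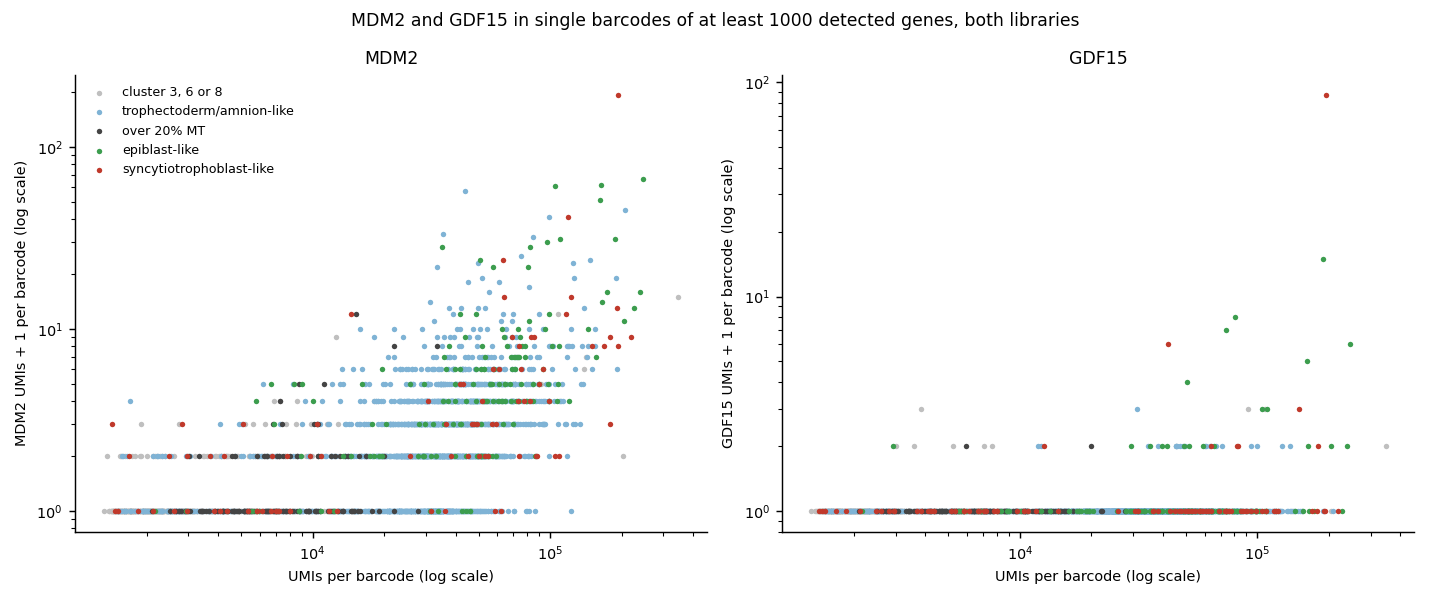
UMIs of MDM2 (left) and GDF15 (right) plus 1 against total UMIs in each barcode with at least 1000 detected genes, both on log scales, coloured by group. A single syncytiotrophoblast-like barcode with 193688 UMIs stands above all others in both panels, with 191 MDM2 and 86 GDF15 UMIs.

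Among the other lists, 8 of 12 tested genes of the integrated stress response were higher in syncytiotrophoblast-like cells than in the trophectoderm/amnion-like class. VEGFA had 54.6 ± 0.202 CPM in syncytiotrophoblast-like cells and 3.94 ± 0.765 CPM in the trophectoderm/amnion-like class (SD, n = 2 libraries each; edgeR adjusted p = 5.50e-12). The stress transcription factors CEBPB and DDIT3 had log2 fold changes of 2.40 and 1.72. Of 32 other p53 targets 10 were higher and 4 lower, and PLK2 (1.80), BTG2 (1.31) and TRIAP1 (1.04) led those that were higher. CDKN1C had a log2 fold change of 3.32, and 6 of 12 immediate early and heat shock genes were higher, led by FOSB (4.68) and FOS (2.70).

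The shallow unnamed clusters 6 and 8 were compared in the same way, also after the data were seen. Cluster 6 (90 and 63 cells, medians of 3376 and 3680 UMIs) was led by S100A7 and PHLDA2. Its summed UMIs were 1.51% and 1.94% mitochondrial, but the median per barcode was 0.110% and 0.178%. That median was 6.23% and 6.06% in the trophectoderm/amnion-like class. Cluster 6 also had a high share of ribosomal protein UMIs, 26.6% and 26.4%. In the trophectoderm/amnion-like class that share was 13.8% and 14.3%. Of 9 tested members 2 were higher in cluster 6 and 0 lower (edgeR, with 0 lower also at an unadjusted p under 0.05 and by the DESeq2 Wald test), where 16% of all genes were higher and 21.3% lower. BAX had 153 and 134 CPM in cluster 6 (42 and 23 UMIs), a log2 fold change of 1.48 over the trophectoderm/amnion-like class (SE 0.23, edgeR adjusted p = 4.95e-06). PHLDA3 had 40.1 and 64.0 CPM in cluster 6 (11 UMIs in each library) and 15.7 and 18.7 CPM in the trophectoderm/amnion-like class, a log2 fold change of 1.76 (SE 0.40, edgeR adjusted p = 0.000668). Both calls held in all 6 alternatives run. At the depth of cluster 6, 3 UMIs equalled 10.9 and 17.5 CPM. CDKN1A and GDF15 lay below that in the trophectoderm/amnion-like class and could hardly be called lower. PHLDA3 is also among the 10 genes that lead cluster 6 in part A.

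Cluster 8 (28 and 26 cells) was led by PLCG2 and had 4.86% and 6.12% of its UMIs from the nuclear RNAs MALAT1 and NEAT1, against 1.81% and 1.57% in the trophectoderm/amnion-like class. Of 9 tested members 1 was higher and 0 lower (edgeR, with 0 lower also at an unadjusted p under 0.05 and by the DESeq2 Wald test), where 2.47% of all genes were higher and 7.87% lower. That member was CDKN1A, at 67.8 and 49.8 CPM in cluster 8 from 5 and 3 UMIs, against 2.14 and 2.03 CPM in the trophectoderm/amnion-like class. The ratio of the summed levels was 28.7, with a counting interval of 11.9 to 59.9, and the log2 fold change was 4.37 (edgeR adjusted p = 0.000414). The other CDK inhibitor called there was CDKN2B (4.65), and TNFRSF10D, a decoy receptor for TRAIL and a p53 target, had a log2 fold change of 3.05. G2 and M phase genes were lower in 8 of 24 cases, led by UBE2C (-3.73) and CCNB2 (-3.31). At the depth of cluster 8, 3 UMIs equalled 40.7 and 49.8 CPM. In the trophectoderm/amnion-like class, MDM2 and BAX alone among the tested members lay above both values. The other members could thus hardly be called lower in cluster 8, so that 0 lower tells little. BAX had a log2 fold change of -1.13 there (edgeR adjusted p = 0.218). Any part of depth or of free and nuclear RNA in the values of clusters 6 and 8 was not tested.

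Barcodes with over 20% mitochondrial UMIs, a usual sign of damaged or dying cells, had medians of 7217 and 6854 UMIs. All 10 members passed the filter here. Of these, 1 was lower than in barcodes at or below 20% and 0 were higher (edgeR, with 1 higher at an unadjusted p under 0.05, as by the DESeq2 Wald test, which called 0 higher). Of all 18423 genes tested, 12.7% were lower and 3.51% higher. The gene was BAX, at 24.1 and 32.9 CPM in barcodes over 20% (10 and 13 UMIs), against 72.8 and 83.4 CPM in the others. Its log2 fold change was -1.88 (SE 0.24, edgeR adjusted p = 0.00162), and it was called lower in all 11 alternatives.

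TNFRSF10B lay the other way without passing the test, at 38.6 and 83.5 CPM in barcodes over 20% and 23.0 and 22.9 CPM in the others (log2 fold change 0.95, edgeR adjusted p = 0.0977). PHLDA3 had 14.5 and 2.53 CPM in barcodes over 20%, from 6 and 1 UMIs, and 18.8 and 21.6 CPM in the others (edgeR adjusted p = 0.112). It was called lower in 4 of 10 alternatives: no filter on low counts, without barcodes over 50%, split at 10%, and at least 5000 UMIs. TNFRSF10B was called higher in 2 of 11, with no filter on low counts and with no replicate block. Neither gene's libraries overlapped between the groups, and PHLDA3 rested on 7 UMIs over both libraries. Of the 10 members, 6 did not overlap in CPM, 4 higher and 2 lower in barcodes over 20%. The same held for 36.2% of all genes tested in the higher and 31.7% in the lower direction. SESN1 had 45.8 and 45.6 CPM in barcodes over 20% and 30.3 and 29.3 CPM in the others, with a log2 fold change after scaling of 0.20 (edgeR adjusted p = 0.476). MDM2 had 72.3 and 98.7 CPM in barcodes over 20% and 69.1 and 66.2 CPM in the others. Its log2 fold change after scaling was -0.08 (edgeR adjusted p = 0.844). The arrest gene CDKN1A and the sparse FAS and GDF15 could not be read in this group. CDKN1A had 0 and 2 UMIs in barcodes over 20%, FAS 1 in each library and GDF15 2 and 0, too few to show a difference at this depth. For CDKN1A, 0 UMIs in library 1 allows up to 7.23 CPM, above the 3.63 CPM of the barcodes at or below 20%.

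The barcodes over 20% differed in more than mitochondrial RNA. Ribosomal protein genes gave 2.83% and 3.71% of their UMIs, against 14.1% and 14.96% in the barcodes at or below 20%. The trophectoderm/amnion markers summed to 1914 and 2012 CPM in barcodes over 20% (12 of 14 markers at 10 CPM or more in each library), against 5086 and 5207 CPM. The epiblast markers summed to 593 and 868 CPM in barcodes over 20%, where NANOG and PRDM14 were at 0 in library 1, against 891 and 941 CPM. The part of these shifts in the values of BAX was not tested. Of 35 tested other p53 targets, 8 were lower and 1 higher in the barcodes over 20%. RPS27L (-2.47), PERP (-2.22), TRIAP1 (-2.08) and EI24 (-2.06) led them, with a list median of -0.70 against -0.21 over all genes. CYCS was lower as BAX was (-3.07), and BCL2 was higher (0.66). Of 12 immediate early and heat shock genes 7 were lower in barcodes over 20%, among them HSPA1B (-3.89) and FOS (-2.43). Genes that p53 lowers through p21 were lower in 11 of 26 cases, led by BIRC5 (-2.59), with CDKN1A at 2 UMIs in this group.

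Within the trophectoderm/amnion-like class, cluster 4 had the highest summed level of G2 and M phase genes in part A, 4604 CPM, and was compared with clusters 0, 1 and 2, at 3175, 834 and 558 CPM. In that comparison 8 members were tested, 1 was higher and 1 lower (edgeR), where 10.3% of all genes were higher and 9.38% lower. BAX had 69.6 and 69.5 CPM in the cycling cluster and 52.6 and 63.7 CPM in the other clusters (log2 fold change 0.27, edgeR adjusted p = 0.0277). PHLDA3 had 11.9 and 11.5 CPM in the cycling cluster and 17.1 and 21.2 CPM in the others (log2 fold change -0.70, SE 0.17, edgeR adjusted p = 0.000484). Among those others, PHLDA3 stood at 12.3 and 5.76 CPM in cluster 0, the next richest in G2 and M phase genes, at 18.8 and 24.6 CPM in cluster 1 and at 11.8 and 17.6 CPM in cluster 2. Cluster 1 was thus the one that lay above the cycling cluster in both libraries by more than the counting intervals. Both calls were lost in the DESeq2 Wald test and when parts A and B were exchanged. The BAX call was also lost with no filter on low counts and with no replicate block. CDKN1A had 0.990 and 1.85 CPM in the cycling cluster (4 and 8 UMIs) and 2.57 and 2.09 CPM in the others (edgeR adjusted p = 0.397). MDM2 stood at 51.5 and 58.8 CPM in the cycling cluster and 52.4 and 58.1 CPM in the others. CDKN1B, which encodes the CDK inhibitor p27, was higher in the cycling cluster (1.17) and CDKN1C lower (-0.58). Of 33 other p53 targets tested 3 were higher, led by POLH (0.63), and 3 lower.

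Whether members rose in the same cells was asked by splitting trophectoderm/amnion-like cells by a UMI in part A, thinned to 2500 UMIs per cell, and reading the other genes in part B. An MDM2 UMI was found in 82 and 109 cells, against 606 and 777 cells without. Of the 7 other members tested, 2 were higher in cells with MDM2 and 0 lower (edgeR, with 5 higher and 0 lower at an unadjusted p under 0.05). Of all 15727 genes tested, 0.566% were higher and 0.0763% lower. The DESeq2 Wald test called 0 members, with 2 higher at an unadjusted p under 0.05 and 0 lower.

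CDKN1A had 5.23 and 8.18 CPM in cells with MDM2 (9 and 16 UMIs), against 1.74 and 1.23 CPM in cells without (23 and 18 UMIs). Its log2 fold change was 2.17 (SE 0.47, edgeR adjusted p = 0.00169). ZMAT3 had 32.6 and 25.0 CPM in cells with MDM2 and 16.8 and 16.7 CPM in cells without, a log2 fold change of 0.75 (SE 0.19, edgeR adjusted p = 0.02). TNFRSF10B had 24.4 and 23.0 CPM in cells with MDM2 and 18.0 and 15.9 CPM in cells without, which did not pass (log2 fold change 0.47, edgeR adjusted p = 0.459). BAX (0.33, adjusted p = 0.318) and PHLDA3 (0.42, adjusted p = 0.569) did not pass in edgeR, and in PHLDA3 the libraries went opposite ways.

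These calls were fragile. CDKN1A kept its call in 4 of 9 alternatives and ZMAT3 in 2 of 9, although each stayed higher in cells with MDM2 in every one. With parts A and B exchanged, CDKN1A lost its call (1.72, edgeR adjusted p = 0.169), ZMAT3 kept it, and TNFRSF10B (0.99, edgeR adjusted p = 0.000681) and PHLDA3 (1.03, edgeR adjusted p = 0.00042) gained one. Without the barcode of the class richest in MDM2, ZMAT3 had 0.70 (edgeR adjusted p = 0.0636) and CDKN1A 2.19 (edgeR adjusted p = 0.00179). Of 33 other p53 targets tested, POLH, the polymerase that copies past ultraviolet damage, was the one called, at 23.0 CPM in cells with MDM2 and 12.3 CPM in cells without.

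**Figure D4:**
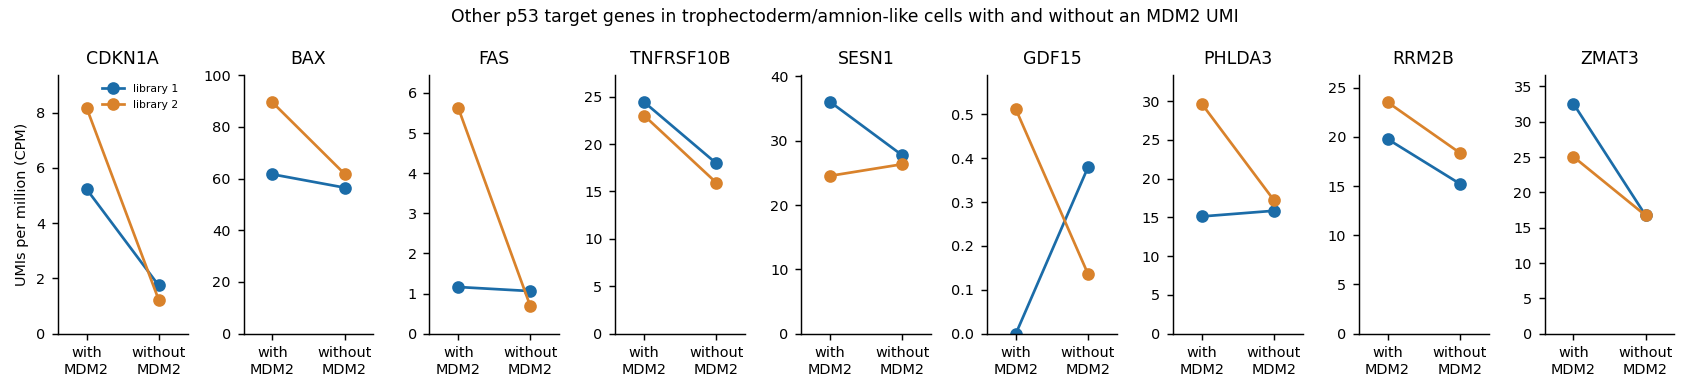
Level of the 9 other members in CPM (part B) in trophectoderm/amnion-like cells with and without an MDM2 UMI in part A, with a line per library and a y axis of its own per gene. CDKN1A, ZMAT3, TNFRSF10B, RRM2B, FAS and BAX are higher with MDM2 within both libraries, though BAX overlaps between the groups across libraries, and in GDF15, PHLDA3 and SESN1 the libraries go opposite ways.

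A CDKN1A UMI was found in only 3 and 7 cells of the class at this depth, so its split could show large differences alone. Of 7 other members tested 0 were called higher and 0 lower (edgeR, with PHLDA3 and ZMAT3 higher at an unadjusted p under 0.05, and 2 higher and 0 called by the DESeq2 Wald test), where 0.0718% of all genes were higher and 0.00653% lower. ZMAT3 had 159 and 58.0 CPM in cells with CDKN1A (8 and 9 UMIs) and 18.1 and 17.3 CPM in cells without (edgeR adjusted p = 0.501). MDM2 had 119 and 129 CPM in cells with CDKN1A and 52.0 and 57.2 CPM in cells without (edgeR adjusted p = 0.9997). TOP2A, a gene of dividing cells, was called lower, at 29.0 ± 41.0 CPM in cells with CDKN1A and 226 ± 17.1 CPM in cells without (SD, n = 2 libraries each; edgeR adjusted p = 0.0164).

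Across 16 sums of 8 clusters by library, the genes whose log2(CPM + 10) followed MDM2 most closely, of 7345 compared, were CARS1 (r = 0.85), SDC1 (0.77), MTHFD2 (0.77), MYO10 (0.76) and TNFAIP2 (0.75). Without the 2 sums highest in MDM2, r was 0.74 for CARS1, 0.77 for MTHFD2 and 0.67 for MYO10, but 0.41 for SDC1 and 0.42 for TNFAIP2. CDKN1A was followed by ANK1 (0.96), ELF3 (0.94), PLCXD1 (0.94), ENSG00000282885 (0.93) and NPTX2 (0.93). Without the 2 sums highest in CDKN1A these values were 0.88, 0.70, 0.80, 0.59 and 0.78 in the same order. Among the members themselves, MDM2 followed GDF15 (0.84) and TNFRSF10B (0.70) and had r = 0.32 with CDKN1A. Without the 2 sums highest in MDM2 these were 0.67, 0.74 and 0.34. BAX had -0.30 with CDKN1A, and 0.52 without the 2 sums highest in CDKN1A. The sums share 2 libraries and are few, so these values only describe them.

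Between the libraries, which have 1 sample each and allow no test, most members agreed within counting error over all barcodes with at least 1000 genes. BAX was at 67.6 CPM in library 1 and 77.8 CPM in library 2, a log2 ratio of -0.20 (95% interval -0.28 to -0.13), and PHLDA3 at 17.5 and 20.2 CPM, also -0.20 (-0.35 to -0.06). GDF15 was at 3.23 CPM in library 1 and 1.48 CPM in library 2, a log2 ratio of 1.12 (0.68 to 1.58). Of its 123 UMIs in library 1, 69.9% came from the single barcode described above, and without it the ratio was -0.60. In library 2, 1 epiblast-like barcode held 14 of the 66 GDF15 UMIs (21.2%). No other member had more than 8.59% of its UMIs in 1 barcode of a library.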

How the data were processed

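Single-cell RNA was sequenced from 2 libraries with 10x droplet 3' chemistry, per the labels' protocols. The authors deposited raw counts of unique molecular identifiers (UMIs) by gene and barcode, made with Cell Ranger 9.0.0 on GRCh38, per the submitters' processing notes. The lists and members were chosen with earlier results of these data known.

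Barcodes with at least 1000 detected genes were used. Those at or below 20% mitochondrial UMIs, less the 0 and 2 doublets that scrublet marked (few, so others may remain), were clustered (scanpy 1.11.5, Leiden, resolution 0.5) on a random portion of the UMIs without members, lists, mitochondrial and ribosomal genes. The remaining UMIs come from the same cells. A cluster took the name of the best of 10 marker lists, unless its depth was under 1/3 of its library's with no own marker among its 10 leading genes.

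UMIs were summed per library and group and tested with edgeR 4.0.16 (quasi-likelihood, TMM, filterByExpr, Benjamini-Hochberg over all genes, threshold 0.05). Library was a block, since the groups share the libraries. Groups with at least 20 cells per library entered 1 joint fit, which left out cluster 3 (17 cells in library 1). Mitochondrial genes were left out of the comparison by mitochondrial share. DESeq2 1.42.0 was an alternative. CPM is not scaled by TMM, so it can differ from the fitted fold change. The SE is the fold change over the root of F. Intervals cover counting error only. This edgeR script was also checked on simulated counts. All members and up to 4 called genes per list at 10 CPM or more were named, and 1 further gene of the rule is not reported here.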

Additional observations from a re-analysis of the deposited data

Results flagged for a closer look

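Signal outside the comparisons came from the 1993 barcodes with under 1000 detected genes, which have medians of 384 and 485 UMIs and enter no test. Over both libraries they held 9 UMIs of CDKN1A, 70 of MDM2, 98 of BAX, 33 of SESN1, 5 of GDF15, 32 of PHLDA3, 18 of RRM2B, 18 of ZMAT3 and 20 of TNFRSF10B, each above the 3 UMIs that a count of 0 allows. In CPM without mitochondrial genes, BAX averaged 94.1 ± 20.4 and MDM2 66.3 ± 2.58 there (SD, n = 2 libraries), against 78.1 ± 7.50 and 67.7 ± 2.05 in barcodes with at least 1000 genes and at most 20% mitochondrial UMIs. With 2 libraries in the group, no library was tested for standing apart.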

How the results depend on the processing

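The count of members called in trophectoderm/amnion-like over epiblast-like cells was 6 and lay between 4 and 7 in the 10 alternatives. For single genes, 568 alternative values kept their call or stayed within the spread, 56 moved by more than it, 32 lost a call, 20 gained one and 2 that were called turned their direction. A further 61 values, called neither before nor after, differed in sign from the main value. The 2 were ZMAT3 against epiblast-like cells without GATA3 (0.0319) and MDM2 in syncytiotrophoblast-like cells without library 1 (-0.2455, against 1.6378 without library 2). Leaving out a library leaves 1 per group, which gives a value and no test. In syncytiotrophoblast-like cells the count of 5 became 3 in the DESeq2 Wald test and 3 without the barcode highest in MDM2. In cluster 8 the count of 1 became 2 with all UMIs and 2 with the parts exchanged. Over 20% mitochondrial UMIs, the count of 1 became 3 with no filter on low counts, 2 with no replicate block, 2 without barcodes over 50%, 3 with the split at 10% and 2 in barcodes with at least 5000 UMIs. In the cycling cluster the count of 2 became 0 in the DESeq2 Wald test, 1 with no filter, 1 with no replicate block and 0 with the parts exchanged. For CDKN1A cells the count of 0 became 2 with no replicate block and 2 with all cells at or below 20%. For MDM2 cells the count of 2 became 0 in the DESeq2 Wald test, 1 with no filter, 1 with no replicate block, 0 in the largest cluster, 0 with all cells at or below 20%, 0 with a cut at 2 UMIs and 1 without the barcode of the class highest in MDM2. The cause was not tested. The block changed no other count by over 1.5 times.

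Over all genes, the DESeq2 Wald test called 704 genes in the cycling cluster, against 3088 in edgeR, 7 in MDM2 cells against 101, and 2 in CDKN1A cells against 12. Without the block 94 were called in CDKN1A cells and 29 in MDM2 cells, with a cut at 2 UMIs 4, with the parts exchanged 40 and with all cells 31. The split at 10% called 6095 genes, against 2980 at 20%. DESeq2's size factors moved the median of all genes from -0.39 to -0.09 in cluster 8, from -0.32 to -0.11 in cluster 6 and from -0.21 to -0.07 over 20% mitochondrial UMIs. The share of calls that were higher moved from 23.9% to 43.2% in cluster 8 and from 21.7% to 32.5% over 20% mitochondrial UMIs, and BAX stayed lower there.

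Depth limits CDKN1A, FAS and GDF15 most. A split at 2 or more CDKN1A UMIs could not be made because no cell had them.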
